A study of Mus musculus with 12 samples.

Results

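Genes of fatty acid oxidation and other targets of the nuclear receptor PPAR alpha were followed in mouse liver with or without hepatocyte Keap1 and with or without the drug CDDO-Im. The 37 members are the genes of a list drawn from general knowledge of the pathway, of 18193 genes that had a probe set naming them alone. The list was chosen with earlier results of these data known. By role they were 18 genes of mitochondrial beta-oxidation, 7 of peroxisomal beta-oxidation, 2 of omega oxidation, 4 regulators and hormones, 1 of ketone body metabolism and 5 other targets. Of the 37, 35 had such a probe set and 33 were bright enough to be tested (a signal above 5 on at least 3 arrays). Ppargc1a and Pdk4 were too dim to be tested. The only probe set that names Cyp4a10 also names Cyp4a31 and was not used, and Acsl1 was not analysed here. The filter removed genes that were dim in nearly all mice, so counts below speak of tested members and not of all members.

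PPAR alpha is a receptor for fatty acids that binds DNA with RXR and switches on the liver's programme for burning fat, chiefly during fasting. Long-chain fatty acids enter mitochondria through the carnitine shuttle and are shortened there by a cycle of dehydrogenation, hydration, oxidation and thiolysis, and the products feed ketone body synthesis. Peroxisomes shorten very long chains, and cytochromes of the Cyp4a family attack the far end of the chain, the omega carbon. Keap1 is the adaptor that marks the transcription factor Nrf2 for degradation, so its loss leaves Nrf2 active. CDDO-Im is a synthetic oleanane triterpenoid that activates Nrf2.

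The 12 mice were males of the C57BL/6J strain aged 9 weeks, and each of 4 groups held 3 of them. Each liver was measured on 1 Affymetrix array. CKO mice, labelled Albumin-Cre:Keap1(flox/-), carried 1 floxed and 1 null Keap1 allele with a Cre that is expressed in hepatocytes. Their genetic controls, labelled Alb-Cre:Keap1(flox/+) and called WT here, carried the same Cre with 1 floxed and 1 wild-type allele. WT is therefore a label for a control with Cre, in which hepatocytes may keep only the wild-type allele, and the null allele of CKO mice is present in every cell type. Mice of each genotype were given vehicle (DMSO, Cremophor-EL and PBS) or 30 umol/kg CDDO-Im in that vehicle once, and livers were taken 6 h later. The drug dose is stated to be by gavage.

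Values are log2 signals, on which a difference of 1 is a doubling, and group values are means ± SD over 3 mice. Array medians were 2.32 to 2.34 over 45101 probe sets, and 16494 to 16776 probe sets per array lay at the lowest value. On 1 probe set Keap1 read 7.92 to 8.89 in the 6 WT livers and 2.74 to 3.31 in the 6 CKO livers. On the other it read 6.58 to 8.08 and 6.15 to 6.51. The first was the brighter in both WT groups and the dimmer over all 12 arrays. Whether either probe set lies within the deleted part was not given in the sources used here. Hepatocyte markers were bright in every group (9 of 10 measured, mean signals of 13.95 to 15.98), while the 5 lymphocyte and 5 skeletal muscle markers measured were at or below 5 on all arrays. Changes were tested with limma on all 12 arrays, with p-values adjusted by Benjamini-Hochberg over 8338 genes, and "rose" or "fell" marks an adjusted p under 0.05.

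The effect of losing Keap1 alone on these genes was read from the vehicle groups, CKO against WT. Cd36, a fatty acid uptake receptor, rose 6.76-fold, and 4 members fell: the ketone body enzyme Bdh1 (2.54-fold lower), the receptor gene Ppara itself (2.03-fold), the fatty acid binding protein Fabp1 (1.73-fold) and the mitochondrial thiolase Acaa2 (1.38-fold). The other 28 of the 33 tested members were not called, among them all 7 peroxisomal ones and Cyp4a14. Of all genes tested, 6.51% were called in this comparison, 3.25% higher and 3.26% lower, against 1 member higher and 4 lower. The 5 called members belong to different steps of fat metabolism, namely uptake, intracellular binding, mitochondrial chain shortening, ketone bodies and transcription.

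Changes below 0 were common among the tested members, counted here with the called ones included. Of the 33 tested members, 27 had a change below 0, against 51.2% of all genes tested, and the median change was -0.21 against -0.01 for all genes. The shift was smaller without WT vehicle replicate 2, the highest of its group for 29 of the 33 members. With that array left out 22 were below 0 (46.5% of all genes), and the median was -0.06 against 0.01 for all genes. Without any other 1 array 24 to 29 were below 0. Before adjustment 12 members had a p under 0.05 (22.2% of all genes did). The 3 CKO livers lay below all 3 WT livers for 11 members (13.3% of all genes) and above them for 1 (13% of all genes). Most of these shifts were small. The 28 members not called ranged from -0.69 for Vnn1, a pantetheinase, to 1.66 for the hormone Fgf21.

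**Figure D1:**
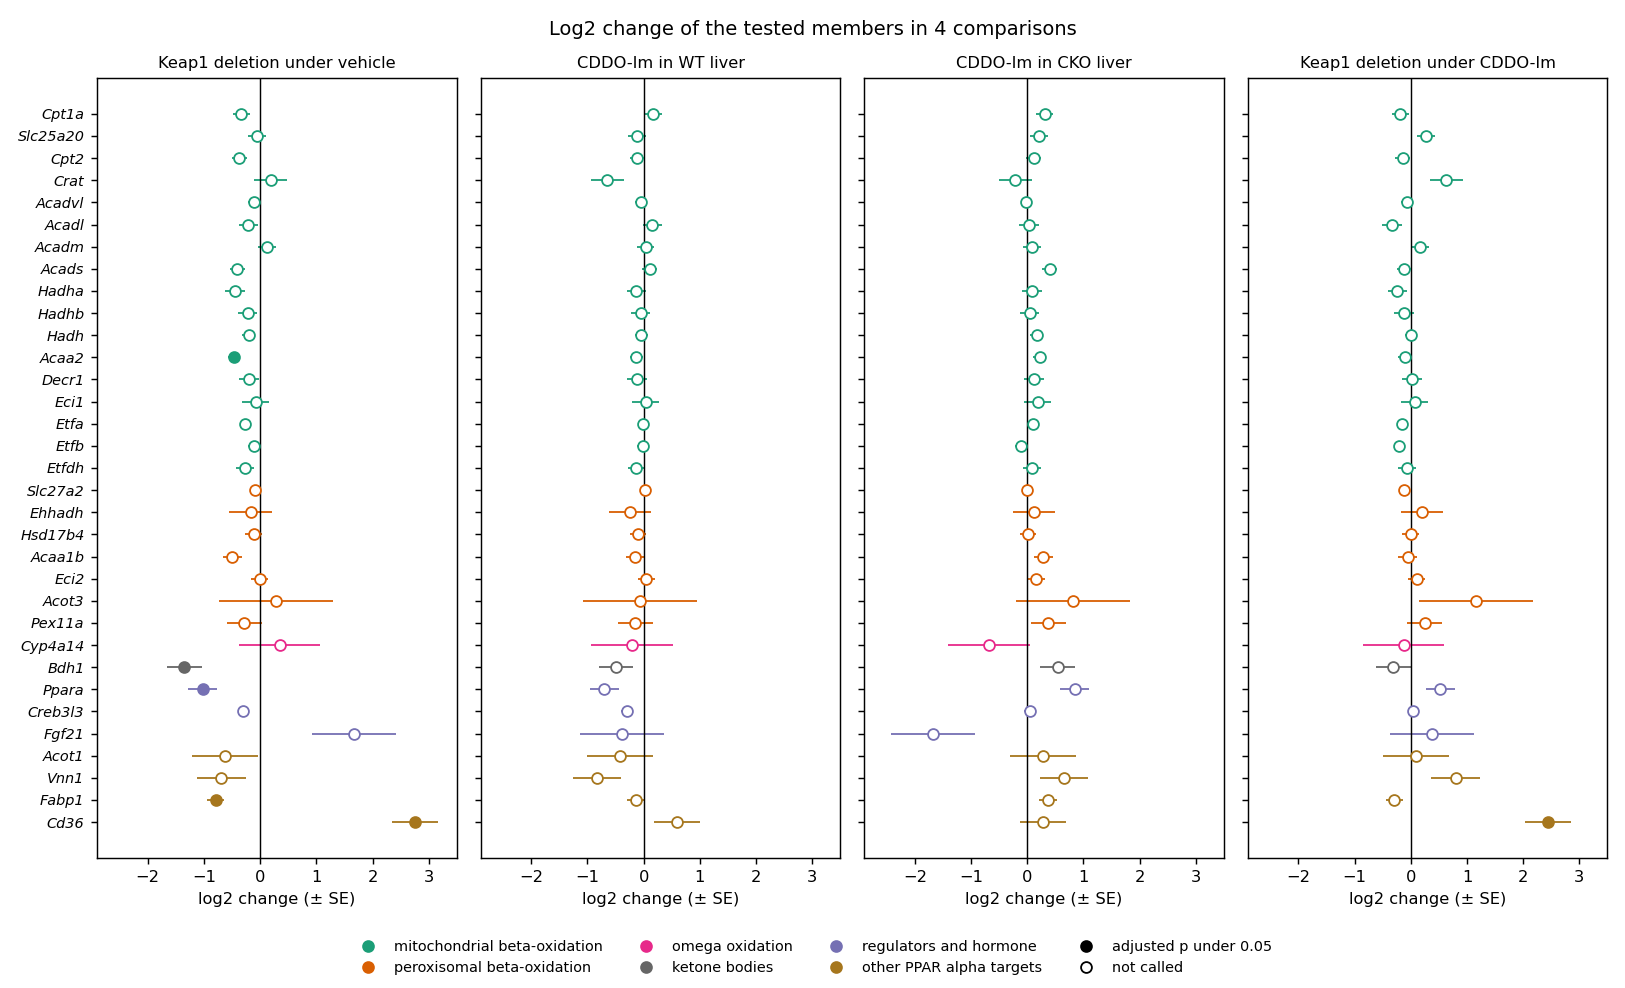
Log2 change (x axis, limma estimate with SE as a horizontal bar) of each of the 33 tested members in 4 comparisons, coloured by role. Filled points passed an adjusted p under 0.05, which are 5 members for Keap1 deletion under vehicle, Cd36 alone for deletion under CDDO-Im and none for CDDO-Im within either genotype.

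Cd36, a fatty acid uptake receptor, and Fabp1, which binds fatty acids inside the cell, changed in opposite directions. Their promoter windows, the 250 bases before the RefSeq start on GRCm38.p6, are printed with that of Ppara, 5′ to 3′ on the strand of the gene, to show the sequence upstream of the uptake receptor, of the binding protein and of the receptor gene. Cd36 lies at chr5:17835897-17836146 (minus strand), Fabp1 at chr6:71199629-71199878 (plus strand) and Ppara at chr15:85735526-85735775 (plus strand). Capitals mark a pair of AGGNCA copies 1 base apart (DR1), the repeat bound by PPAR alpha with RXR, and TGACNNNGC, the core bound by Nrf2, on either strand.
Cd36: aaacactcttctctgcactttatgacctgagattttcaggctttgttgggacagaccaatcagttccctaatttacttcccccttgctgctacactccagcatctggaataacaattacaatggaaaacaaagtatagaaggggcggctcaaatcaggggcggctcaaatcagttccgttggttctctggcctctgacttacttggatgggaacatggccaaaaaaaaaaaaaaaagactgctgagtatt
Fabp1: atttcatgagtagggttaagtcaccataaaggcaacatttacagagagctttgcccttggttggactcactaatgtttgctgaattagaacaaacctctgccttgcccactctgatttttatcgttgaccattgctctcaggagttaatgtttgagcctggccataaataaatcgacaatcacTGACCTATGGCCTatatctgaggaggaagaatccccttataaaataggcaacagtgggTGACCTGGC
Ppara: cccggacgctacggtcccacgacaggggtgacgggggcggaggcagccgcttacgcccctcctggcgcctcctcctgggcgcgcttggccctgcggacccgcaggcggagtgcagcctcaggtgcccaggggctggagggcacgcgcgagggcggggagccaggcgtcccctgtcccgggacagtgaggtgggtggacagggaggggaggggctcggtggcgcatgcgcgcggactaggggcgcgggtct
Among the 30 members with a window, Fabp1 alone held the repeat, as AGGCCATAGGTCA on the reverse strand, 67 to 55 bases before the start. The repeat occurred in 0.4% of 27025 genes with a window. The Nrf2 core occurred in Ehhadh, Acot3 and Fabp1, 3 of the 30 members, and in 11.5% of all genes. In Fabp1 it is TGACCTGGC in the last 9 bases before the start, and the motifs do not overlap. A match describes letters only, and windows without one say nothing about binding elsewhere.

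Cd36 signals, in the order of the replicate numbers here and below, were 7.48, 9.45 and 7.69 in WT vehicle and 10.96, 11.16 and 10.78 in CKO vehicle livers. With CDDO-Im they were 9.00, 8.78 and 8.64 in WT and 11.18, 11.39 and 11.19 in CKO livers. All 6 CKO livers lay above all 6 WT livers, and WT vehicle replicate 2 stood well above the other 2 mice of its group. The log2 change with deletion was 2.76 ± 0.41 (SE, adjusted p = 0.00374) under vehicle and 2.44 ± 0.41 (5.44-fold, adjusted p = 0.0201) under CDDO-Im. A second Cd36 probe set was called in both, at 2.95 (adjusted p = 0.00437) under vehicle and 2.58 (adjusted p = 0.0219) under CDDO-Im, with 13298 probe sets each tested on its own. In WT livers the third averaged 4.21 under vehicle and 4.77 under CDDO-Im, and it reached the brightness filter through the CKO livers (7.39 to 8.55), so no size or call is taken from it. The call under vehicle held without any 1 array, and the change was 3.38 without WT vehicle replicate 2. The call under CDDO-Im was lost without any 1 of the 6 arrays of its groups, at adjusted p = 0.0527 to 0.0836. With only the arrays of the compared groups in the fit the adjusted p was 0.0594 under vehicle and 0.00187 under CDDO-Im.

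Cd36 is also expressed by macrophages, endothelium and fat cells, so markers of these were set beside it. All 9 macrophage markers were measured and their summed signal in WT livers was 12.71 to 13.57 under vehicle and 13.14 to 13.35 under CDDO-Im, and in CKO livers 13.03 to 13.57 and 13.08 to 13.64. Cd68 was at or below 5 on all arrays. Of the 7 tested, Marco was called with deletion under vehicle (adjusted p = 0.0151), at 5.70, 3.95 and 4.95 in WT and 7.79, 7.34 and 6.38 in CKO livers. Its WT vehicle mean of 4.86 lies under 5, so no size is given. It was not called with deletion under CDDO-Im (adjusted p = 0.304). All 7 endothelial markers were measured and summed to 11.39 to 11.68, 11.31 to 11.67, 11.43 to 11.51 and 11.42 to 11.996 in the same order of groups, with Pecam1 at or below 5 throughout. Lyve1, a hyaluronan receptor of sinusoidal endothelium, rose by 2.24 with deletion under vehicle (adjusted p = 0.0176) and by 2.57 with CDDO-Im in WT livers (adjusted p = 0.015), where Cd36 was not called. With deletion under CDDO-Im, where Cd36 was called, Lyve1 differed by 1.35 (adjusted p = 0.178). Of the 6 endothelial markers tested, 4 were below 0 with deletion under vehicle, beside 51.2% of all genes. With CDDO-Im in WT livers 3 were, beside 55.1%. There Stab2 and Kdr each gave -0.53 and Vwf -0.62, while Cdh5 gave 0.10 and Clec4g 0.08. Only Lyve1 was called in either comparison. Of the 4 fat cell markers measured, Adipoq, Lep and Retn were at or below 5 on all arrays, and the summed signal was 6.87 to 7.09, 6.69 to 7.25, 7.10 to 7.65 and 7.25 to 7.38. Fabp4, the 1 fat cell marker tested, was higher by 0.39 with deletion under vehicle (limma adjusted p = 0.219). Its vehicle groups did not overlap, as for 13% of all genes in that direction. With deletion under CDDO-Im it differed by 0.37 (limma adjusted p = 0.313). The part of macrophages, endothelium and fat cells in the Cd36 difference was not tested. In whole liver RNA, fewer cells of a type and less RNA per cell cannot be told apart.

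Fabp1, the abundant liver fatty acid binding protein, read 14.91, 14.94 and 14.83 in WT vehicle and 13.98, 14.52 and 13.81 in CKO vehicle livers. Under CDDO-Im it read 14.56, 14.89 and 14.83 in WT and 14.47, 14.46 and 14.47 in CKO livers. The CKO livers lay below the WT livers under both treatments. The fall under vehicle was -0.79 ± 0.16 (adjusted p = 0.0151), with -0.49 (adjusted p = 0.0304) on the second probe set, and the difference under CDDO-Im was -0.29 ± 0.16 (adjusted p = 0.389). The call was lost without CKO vehicle replicate 3 (adjusted p = 0.0662) and, separately, without WT vehicle replicate 1 (adjusted p = 0.0522).

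**Figure D2:**
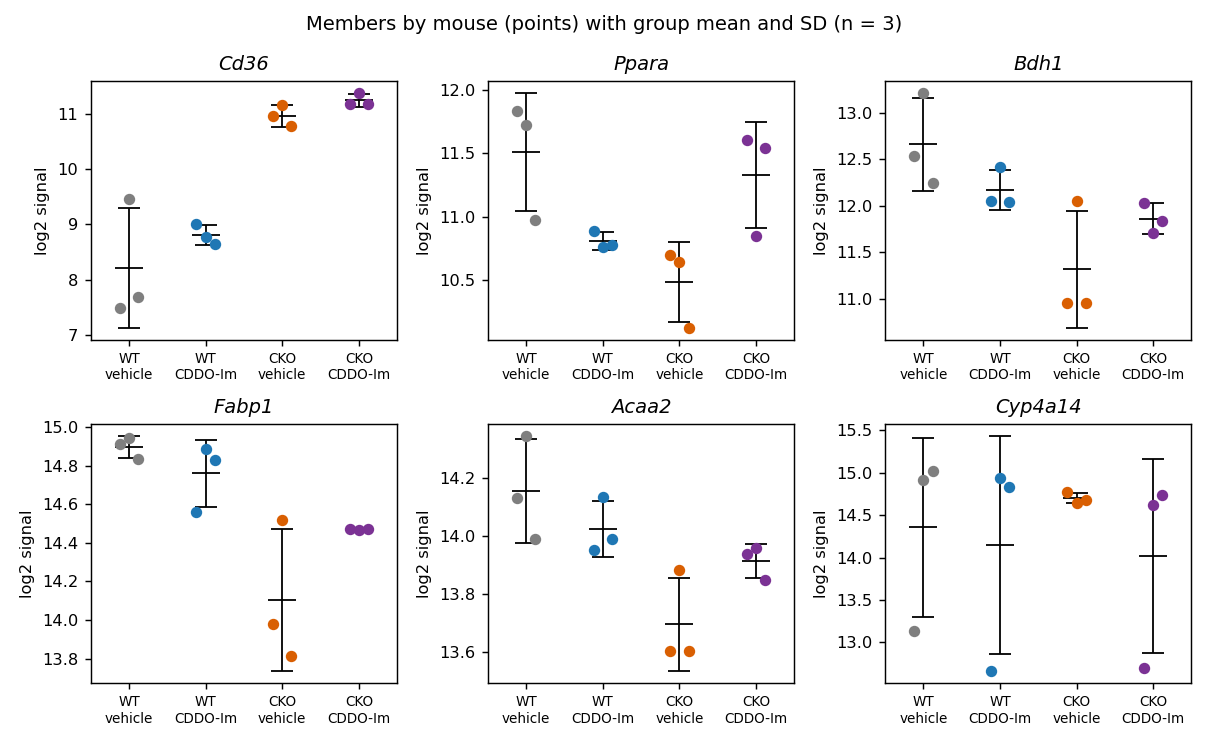
Log2 signal (y axis) of 6 members in each mouse (points), with the group mean and SD (lines, n = 3), for WT and CKO livers under vehicle and CDDO-Im. Cd36 is higher in all 6 CKO livers, Ppara, Bdh1, Fabp1 and Acaa2 are lower in CKO vehicle than in WT vehicle livers, and Cyp4a14 is low in 3 single mice of 3 groups.

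Mitochondrial beta-oxidation held 17 tested members, of which 1 fell, none rose and 16 were not called with deletion under vehicle. Their changes ran from -0.46 to 0.19 with a median of -0.21, and 15 of the 17 were below 0. Acaa2, the thiolase that releases acetyl-CoA in the last step, read 14.13, 14.35 and 13.99 in WT vehicle and 13.60, 13.88 and 13.60 in CKO vehicle livers, without overlap. With CDDO-Im it read 13.95, 14.14 and 13.99 in WT and 13.94, 13.96 and 13.85 in CKO livers, which overlapped. Its fall under vehicle was -0.46 ± 0.11 (adjusted p = 0.0337), and its other 2 probe sets gave -0.41 (adjusted p = 0.0531) and -0.29 (adjusted p = 0.178). The call was lost without CKO vehicle replicate 3 (adjusted p = 0.122) or 5 (0.0998), and likewise without WT vehicle replicate 1 (0.0826) or 2 (0.0945).

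Cpt1a, the outer membrane enzyme that commits fatty acids to the mitochondrion, was not called. It read 13.20, 13.53 and 12.80 in WT vehicle and 12.74, 12.80 and 13.00 in CKO vehicle livers, where the groups overlapped (-0.33 ± 0.15, adjusted p = 0.24). With CDDO-Im it read 13.40, 13.26 and 13.36 in WT and 13.14, 13.12 and 13.21 in CKO livers, with no overlap but a difference of only -0.18 ± 0.15. The rest of the carnitine shuttle gave -0.37 ± 0.13 for the inner membrane enzyme Cpt2 (adjusted p = 0.133), -0.06 ± 0.16 for the carrier Slc25a20 and 0.19 ± 0.29 for the acetyltransferase Crat. No member of the shuttle passed the test. Cpt2 was lower in every CKO vehicle liver (12.66 to 13.05) than in any WT vehicle liver (13.07 to 13.35), as were 13.3% of all genes.

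The acyl-CoA dehydrogenases, which open the cycle for chains of different length, were not called. The short-chain enzyme Acads differed by -0.40 ± 0.13 (adjusted p = 0.108) with deletion under vehicle, and the medium-chain enzyme Acadm by 0.12 ± 0.15. The long-chain Acadl and very-long-chain Acadvl gave -0.21 ± 0.17 and -0.11 ± 0.10. Of the trifunctional protein, which carries out the later steps on long chains, Hadha differed by -0.45 ± 0.18 (adjusted p = 0.16) and Hadhb by -0.22 ± 0.17. The short-chain hydroxyacyl-CoA dehydrogenase Hadh gave -0.21 ± 0.11, and Decr1 and Eci1, which handle double bonds, gave -0.20 ± 0.18 and -0.08 ± 0.24. The second, dimmer Decr1 probe set gave -1.09 (adjusted p = 0.0903), so the size for Decr1 depends on the probe set. Among the electron carriers that pass electrons from the dehydrogenases to the respiratory chain, Etfa differed by -0.26 ± 0.08 (adjusted p = 0.0832), Etfdh by -0.27 ± 0.16 and Etfb by -0.11 ± 0.10. None of these 12 genes passed the test. Acads, Hadha and Etfa were lower in every CKO vehicle liver than in any WT vehicle liver, as were 13.3% of all genes.

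Peroxisomal beta-oxidation held 7 tested members, none of which was called with deletion under vehicle (1 had an unadjusted p under 0.05 by limma). Their changes ran from -0.49 to 0.28 with a median of -0.11, and 6 of the 7 were below 0. Ehhadh, the bifunctional enzyme of peroxisomes and a strong PPAR alpha target, read 11.72, 12.67 and 12.54 in WT vehicle and 12.12, 12.56 and 11.74 in CKO vehicle livers. With CDDO-Im it read 11.56, 12.60 and 12.03 in WT and 11.56, 12.55 and 12.68 in CKO livers. The groups overlapped throughout, and the difference under vehicle was -0.17 ± 0.38 (adjusted p = 0.834). The thiolase Acaa1b gave the lowest value, -0.49 ± 0.17 (adjusted p = 0.112), without overlap, and may share signal with its near copy Acaa1a.

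The remaining peroxisomal members differed little or varied widely between mice. The multifunctional enzyme Hsd17b4 differed by -0.11 ± 0.15, the isomerase Eci2 by -0.01 ± 0.15, the very-long-chain synthetase and transporter Slc27a2 by -0.09 ± 0.08 and Pex11a, which promotes peroxisome division, by -0.28 ± 0.31. Slc27a2 was lower in every CKO vehicle liver (14.62 to 14.72) than in any WT vehicle liver (14.76 to 14.79), as were 13.3% of all genes. Acot3, a thioesterase, read 6.44, 8.80 and 4.80 in WT vehicle and 5.48, 9.06 and 6.34 in CKO vehicle livers. Its 2 high readings came from 1 mouse of each genotype, and its change of 0.28 ± 1.02 has an interval of -1.98 to 2.54 (95%).

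Omega oxidation is represented by Cyp4a14 alone. WT livers read 13.14, 14.91 and 15.02 under vehicle and 12.66, 14.94 and 14.84 under CDDO-Im. CKO livers read 14.77, 14.65 and 14.69 under vehicle and 12.70, 14.62 and 14.74 under CDDO-Im. A single mouse was low in each of 3 groups, namely WT vehicle replicate 1 and replicate 2 of both CDDO-Im groups, and no CKO vehicle mouse was. The other 9 livers lay within 14.62 to 15.02, genotype and drug apart. The difference with deletion under vehicle was 0.35 ± 0.73 (adjusted p = 0.826), and without WT vehicle replicate 1 it was -0.26. Close relatives of Cyp4a14 may share its signal.

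The 3 routes were set side by side for deletion under vehicle. The median change was -0.21 over 17 mitochondrial members, -0.11 over 7 peroxisomal members and 0.35 for Cyp4a14, beside -0.01 for all genes tested. Leaving out the members known in both organelles (Crat, Slc27a2 and Eci2), the mitochondrial and peroxisomal medians were -0.21 and -0.17. Without WT vehicle replicate 2 they were -0.06 and 0.01, and without CKO vehicle replicate 4 they were -0.31 and -0.38. The order of the mitochondrial and peroxisomal medians thus turned with the mice included, and the difference between routes was not tested.

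**Figure D3:**
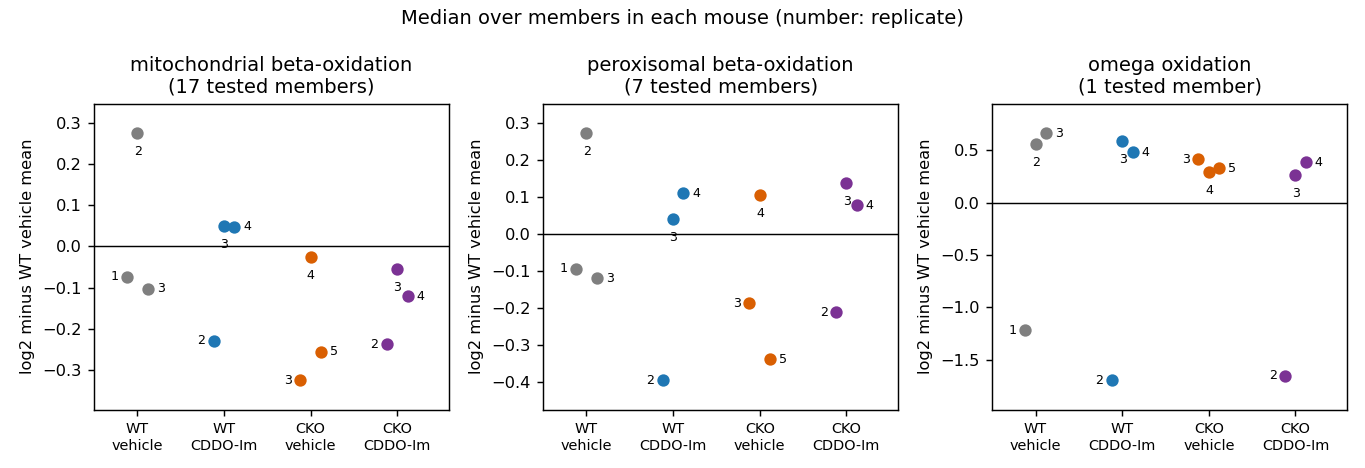
Median over the tested members of each route in every mouse (points, numbered by replicate), as log2 signal minus the WT vehicle mean of each gene (y axis). WT vehicle replicate 2 is the highest mouse for the mitochondrial (0.27) and peroxisomal (0.27) members, replicate 2 of both CDDO-Im groups is the lowest of its group for all 3 routes, and the omega oxidation panel is the single gene Cyp4a14.

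Of the regulators, Ppara fell and the others were not called with deletion under vehicle. Ppara read 11.83, 11.72 and 10.97 in WT vehicle and 10.70, 10.64 and 10.13 in CKO vehicle livers. With CDDO-Im it read 10.89, 10.76 and 10.78 in WT and 11.60, 10.85 and 11.54 in CKO livers. The vehicle groups did not overlap, and the drug groups overlapped. The fall was -1.02 ± 0.26 (adjusted p = 0.0434), and the difference under CDDO-Im was 0.52 ± 0.26 (adjusted p = 0.335). The fall was lost without any 1 of the 3 CKO vehicle or the 3 WT CDDO-Im arrays, WT vehicle replicate 1 or 2 or CKO CDDO-Im replicate 4 (adjusted p = 0.0561 to 0.137). The other 2 probe sets of Ppara gave -0.30 (adjusted p = 0.732) and -0.65 (adjusted p = 0.0548).

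Ppargc1a, a coactivator of PPAR alpha, was dim throughout and was not tested. WT livers read 4.47, 4.89 and 4.40 under vehicle and 4.59, 4.24 and 5.25 under CDDO-Im. CKO livers read 3.46, 3.93 and 4.43 under vehicle and 4.29, 4.43 and 4.58 under CDDO-Im. A single array exceeded 5. Creb3l3, a liver transcription factor that works with PPAR alpha on the Fgf21 gene, differed by -0.30 ± 0.10 (adjusted p = 0.0893), with all CKO vehicle livers below all WT vehicle livers. Fgf21, a hormone of fasting liver, read 6.01, 5.63 and 7.92 in WT vehicle and 10.01, 6.88 and 7.65 in CKO vehicle livers. With CDDO-Im it read 6.43, 6.12 and 5.83 in WT and 6.29, 6.76 and 6.48 in CKO livers. A single CKO vehicle mouse, replicate 3, was far above the rest, the vehicle groups overlapped, and the difference of 1.66 ± 0.75 was not called (adjusted p = 0.223).

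Bdh1, the mitochondrial enzyme that interconverts the ketone bodies acetoacetate and beta-hydroxybutyrate, showed the largest fall among the members. It read 12.54, 13.21 and 12.24 in WT vehicle and 10.95, 12.05 and 10.96 in CKO vehicle livers. With CDDO-Im it read 12.05, 12.42 and 12.04 in WT and 12.03, 11.70 and 11.84 in CKO livers. The CKO livers lay below the WT livers under both treatments, by -1.35 ± 0.31 (adjusted p = 0.0302) under vehicle and by -0.31 ± 0.31 (adjusted p = 0.657) under CDDO-Im. Its second probe set gave -1.34 (adjusted p = 0.057) under vehicle. The call was lost without CKO vehicle replicate 3 (adjusted p = 0.115) or 5 (0.0953), and likewise without WT vehicle replicate 1 (0.0696) or 2 (0.0852).

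Pdk4, a mitochondrial kinase that inhibits pyruvate dehydrogenase and so spares pyruvate when fat is burned, was not tested for lack of signal. Its signals in WT livers were 4.18, 4.46 and 4.38 under vehicle and 4.52, 4.96 and 6.01 under CDDO-Im. In CKO livers they were 4.27, 4.20 and 4.43 under vehicle and 4.59, 4.79 and 4.98 under CDDO-Im. WT CDDO-Im replicate 4 alone exceeded 5. The thioesterase Acot1, which has near copies that may share its signal, differed by -0.62 ± 0.59 with deletion under vehicle. Vnn1 differed by -0.69 ± 0.43. Neither passed the test (adjusted p = 0.581 and 0.391).

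CDDO-Im in WT livers was examined next, to see whether the drug moved these genes within 6 h. None of the 33 tested members was called by limma, where 3.65% of all genes tested were (1.88% higher and 1.76% lower), and 2 members had an unadjusted p under 0.05 (19.6% of all genes did). These were Creb3l3 at -0.30 ± 0.10 (adjusted p = 0.114) and Ppara at -0.70 ± 0.26 (adjusted p = 0.167), and for both the drug group lay wholly below the vehicle group, as for 13.1% of all genes. No member lay wholly above it (10.1% of all genes). Of the 33, 25 were below 0 (55.1% of all genes), and 14 were without replicate 2 of WT vehicle or, separately, of WT CDDO-Im. The Ppara probe sets disagreed, at -0.70, 0.70 and -0.10. Crat differed by -0.64 ± 0.29 and Vnn1 by -0.83 ± 0.43. The median change was -0.05 over mitochondrial members, -0.10 over peroxisomal members and -0.21 for Cyp4a14, beside -0.02 for all genes. Each of these 3 values changed sign in some fits that left out 1 array. The mitochondrial one became 0.03 without WT vehicle replicate 2 and 0.04 without WT CDDO-Im replicate 2, the peroxisomal one 0.03 and 0.0026. Cyp4a14 ran from -0.82 without WT vehicle replicate 1 to 0.53 without WT CDDO-Im replicate 2. Cd36 differed by 0.60 ± 0.41 (adjusted p = 0.465), and without WT vehicle replicate 2 it was the 1 member called.

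In CKO livers CDDO-Im gave no call among the members or among all 8338 genes by limma (0% called), and 4 members and 9.47% of all genes had an unadjusted p under 0.05. The 4 were Ppara at 0.84 ± 0.26 (adjusted p = 0.42), Acads at 0.40 ± 0.13 (0.453), Fabp1 at 0.37 ± 0.16 (0.515) and Fgf21 at -1.68 ± 0.75 (0.526). Of the 33 members, 27 had a change above 0 and 6 below it (56.4% of all genes were below), and the median was 0.12 against -0.02 for all genes. By route the medians were 0.10 for mitochondrial members, 0.16 for peroxisomal members and -0.68 for Cyp4a14. Leaving out 1 array kept these signs but moved the sizes. The mitochondrial median ran from 0.04 without CKO CDDO-Im replicate 3 to 0.20 without CKO vehicle replicate 4. The peroxisomal median reached 0.33 without CKO vehicle replicate 4 and 0.36 without CKO CDDO-Im replicate 2, and Cyp4a14 ran from -1.04 without CKO CDDO-Im replicate 4 to -0.02 without replicate 2. The drug group lay wholly above the vehicle group for Cpt1a, Cd36 and Ppara (5.18% of all genes) and below it for Fgf21 (9.4%). The CKO vehicle livers serve in this comparison and in that of deletion under vehicle, so a high or low reading there moves both.

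The effect of Keap1 deletion was then read from the groups given CDDO-Im. Cd36 was the 1 tested member called, where 1.54% of all genes were (0.744% higher and 0.792% lower), and the 1 member with an unadjusted p under 0.05 (16.8% of all genes). Its values are given above. The median over the 33 members was 1e-04, with 16 below 0 (51.8% of all genes), and was -0.11 over mitochondrial members, 0.11 over peroxisomal members and -0.13 for Cyp4a14. Without 1 array 13 to 22 members were below 0. The mitochondrial median stayed below 0 (-0.17 to -0.03), the peroxisomal one became -0.05 without WT CDDO-Im replicate 2, and Cyp4a14 ran from -0.87 without that mouse to 0.53 without CKO CDDO-Im replicate 2. Groups did not overlap for 3 members higher in CKO (Cd36, Slc25a20 and Acot3; 10.4% of all genes) and 3 lower (Bdh1, Cpt1a and Fabp1; 12.2% of all genes).

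Whether the drug effect differed by genotype was tested with the interaction term. No member was called by limma (0.276% of all genes were, 0.024% higher and 0.252% lower), and 6 had an unadjusted p under 0.05 (10.3% of all genes). These were Ppara at 1.54 ± 0.37 (adjusted p = 0.171), Vnn1 at 1.49 ± 0.61 (0.455), Bdh1 at 1.03 ± 0.44 (0.46), Fabp1 at 0.50 ± 0.22 (0.479), Acaa2 at 0.35 ± 0.15 (0.483) and Creb3l3 at 0.35 ± 0.14 (0.424). Of the 33, 27 lay above 0 and 6 below it (49% of all genes were below), with a median of 0.21. The median was 0.08 without WT vehicle replicate 2 and 0.10 without WT CDDO-Im replicate 2. For Cd36 the interaction was -0.31 ± 0.57, with a 95% interval of -1.59 to 0.96. A difference in the response to CDDO-Im between genotypes was therefore not shown for any member.

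Mice of 1 group differed from each other in many members at once. WT vehicle replicate 2 was the highest of its group for 29 of the 33 members, with a median deviation of 0.27 from the group mean (0.04 over all genes tested). CKO vehicle replicate 4 was the highest of its group for 28 members (0.20, against 0 over all genes). In the drug groups, WT replicate 2 was the lowest for 26 members (-0.18, against -0.03) and CKO replicate 2 for 25 (-0.14, against 0). In each of these mice the median deviation of the members was thus further from 0 than that of all genes. The share of all genes for which each mouse was the highest or lowest of its group was not counted. Whether the members moved together more than other genes is therefore not shown. These mice included the low readings of Cyp4a14 in both drug groups. What set these mice apart was not tested.

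A list of 105 other genes of the pathway was drawn up from general knowledge, with earlier results of these data known. Of these, 91 had a probe set that names them alone and 80 were tested. With deletion under vehicle 4 rose, 5 fell and 71 were not called, where 6.51% of all genes were called (3.25% higher and 3.26% lower), and the median was -0.09. Pparg, the receptor relative that drives fat storage, read 6.72, 7.28 and 6.57 in WT vehicle and 8.18, 8.17 and 8.03 in CKO vehicle livers (1.27 ± 0.21, 2.41-fold higher, adjusted p = 0.00766). Slc25a17, a peroxisomal cofactor carrier, read 9.06, 8.73 and 8.76 in WT vehicle and 10.01, 10.12 and 9.67 in CKO vehicle livers (1.09 ± 0.13, adjusted p = 0.00139). In both genes the CKO livers lay wholly above the WT livers. The largest falls were those of Nudt7, a peroxisomal hydrolase of coenzyme A (-1.30 ± 0.22, 2.46-fold lower, adjusted p = 0.00821), and Mgll, the monoglyceride lipase (-1.01 ± 0.25, 2.01-fold lower, adjusted p = 0.0434). The call for Mgll was lost without replicate 3 or 5 of CKO vehicle, 2 or 3 of WT vehicle, or 3 or 4 of either drug group (adjusted p = 0.0535 to 0.13), and those for Pparg, Slc25a17 and Nudt7 held without any 1 array. The other called genes, named after their values were seen, were Pnpla2 (0.68) and Acox2 (0.65), which rose, and Plin2 (-0.95), Cyp4v3 (-0.65) and Amacr (-0.60), which fell. The calls for Plin2 and Amacr held without any 1 array. That for Acox2 was lost without replicate 4 of CKO vehicle (0.0529) or 2 of WT vehicle (0.0602), and that for Pnpla2 without replicate 3 or 5 of CKO vehicle or 1 or 3 of WT vehicle (0.0705 to 0.0902). That for Cyp4v3 was lost without any 1 vehicle or WT CDDO-Im array (0.0517 to 0.134).

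CDDO-Im in WT livers raised 3 of the 80 other genes and lowered 3, where 3.65% of all genes were called (1.88% higher and 1.76% lower), with 74 not called and a median of -0.03. Slc25a17 rose again to 9.43, 9.73 and 9.63 (0.75 ± 0.13, adjusted p = 0.015), and Pnpla2, the lipase that starts the breakdown of stored fat, rose from 9.23, 9.42 and 9.24 to 9.84, 9.85 and 10.25 (0.68 ± 0.15, adjusted p = 0.0404). Nudt7 fell from 14.75, 14.59 and 14.77 to 13.60, 13.56 and 13.30 (-1.22 ± 0.22, adjusted p = 0.0163). Plin2, which coats lipid droplets, fell from 14.66, 14.68 and 14.19 to 13.64, 13.55 and 13.36 (-0.99 ± 0.14, adjusted p = 0.00482). None of these groups overlapped. In CKO vehicle livers Nudt7 read 13.42, 12.92 and 13.89 and Plin2 read 13.44, 13.74 and 13.50, also below every WT vehicle liver. Deletion and drug are both measured here against the same 3 WT vehicle livers. Ppard (0.63), which rose, and Slc16a1 (-0.88), a carrier of ketone bodies and lactate, which fell, were the others called, named after their values were seen.

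With the drug, the calls for Plin2 and Slc16a1 held without any 1 array, and that for Ppard was lost without WT vehicle replicate 1 or 2 or WT CDDO-Im replicate 4 (adjusted p = 0.0647 to 0.0833). That for Slc25a17 was lost without WT vehicle replicate 2 or 3 or WT CDDO-Im replicate 3 or 4 (adjusted p = 0.0509 to 0.0647), and that for Nudt7 without WT vehicle replicate 3 (0.0513) or WT CDDO-Im replicate 4 (0.0748). That for Pnpla2 was lost without any 1 WT array or without replicate 3 of either CKO group (0.056 to 0.135). The count of 6 became 2 without WT CDDO-Im replicate 4 and 3 without WT vehicle replicate 2 or 3. In CKO livers with CDDO-Im, with deletion under CDDO-Im and for the interaction, 0 of the 80 genes were called by limma, and 8, 14 and 10 had an unadjusted p under 0.05, beside 9.47%, 16.8% and 10.3% of all genes. Pparg under CDDO-Im, at 0.92 ± 0.21 (adjusted p = 0.0674), was called without WT vehicle replicate 2, with quantile normalization and with median centring.

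**Figure D4:**
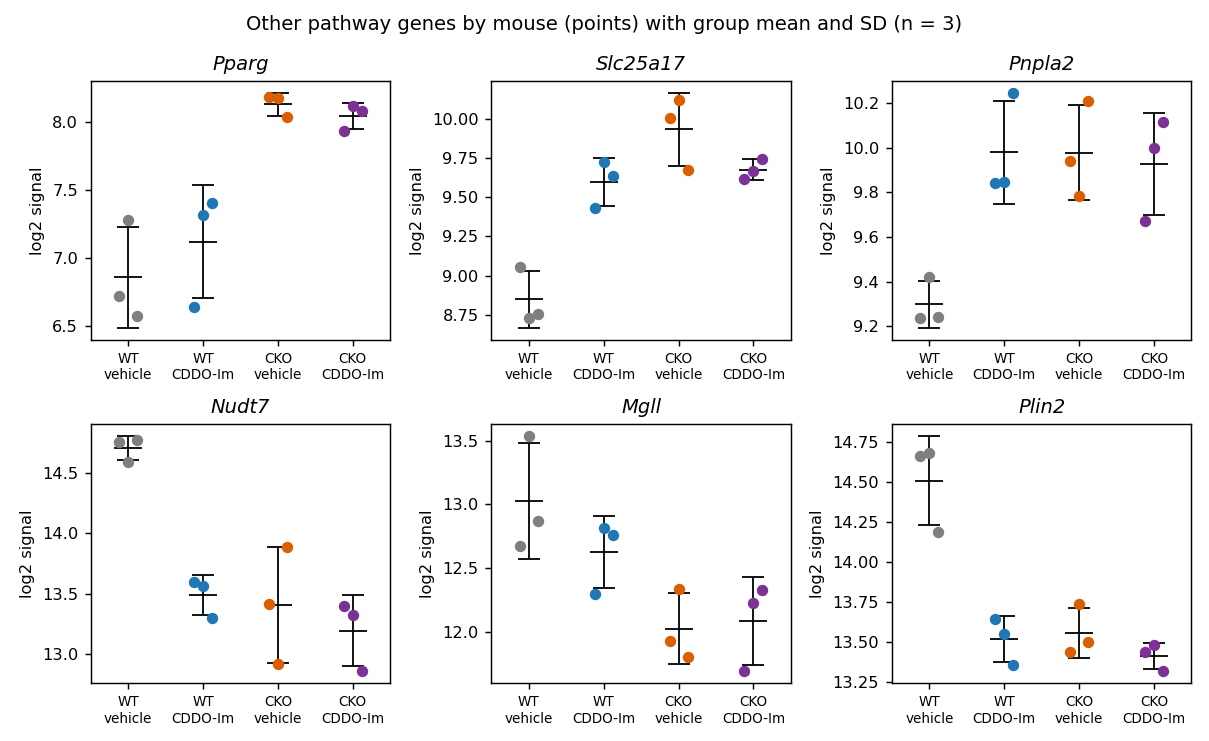
Log2 signal (y axis) of 6 other genes of the pathway in each mouse (points), with the group mean and SD (lines, n = 3). Pparg is higher in all 6 CKO livers, while Slc25a17 and Pnpla2 are higher and Nudt7 and Plin2 lower in the other 3 groups than in WT vehicle livers.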

How the data were processed

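Liver RNA of 12 mice, 1 array each, was analysed from the deposited value table. Per the submitters' processing notes, the authors made these log2 signals with GCRMA (version 2.12.1, under R 2.7.0). Its settings were not given in the sources used here. GCRMA places probe sets without signal at a floor, so no linear fold is given where a group mean was under 5. Probe sets were named by the platform annotation, and RefSeq GRCm38.p6 gave symbols and promoters. The brightest probe set naming 1 gene stood for it, and 8338 genes above 5 on at least 3 arrays were tested.

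Groups came from the labels. limma 3.58.1 in R 4.3.3 fitted 4 group means (8 residual degrees of freedom), two-sided, with Benjamini-Hochberg adjustment over all genes and a threshold of 0.05. The labels do not say whether mice were handled together, and the number of arrays limits the precision. The code was tested on simulated data for deletion under vehicle, where 88 of 100 genes changed by 1 (log2) and 98 of 100 changed by 2 were called, with 11 false calls among 8338 genes. The simulated noise was normal and independent for each gene, with no shift shared by the genes of a mouse. These numbers check the code and do not give the power of the real data. Members and lists were chosen with earlier results of these data known. Per-mouse values are given for called members and for Ppara, Ppargc1a, Cpt1a, Cyp4a14, Ehhadh, Pdk4 and Fgf21. Those of Acot3 were added after they were seen. Of the other pathway genes, the 2 called with the largest rise and fall per comparison were named. Alternatives covered normalization, filter, probe set choice, moderation, arrays in the fit, a replicate block and leaving out each array.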

Additional observations from a re-analysis of the deposited data

Results flagged for a closer look

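Ppara stood out because every CKO liver given CDDO-Im read above every CKO vehicle liver, while every WT liver given CDDO-Im read below every WT vehicle liver. The drug effect in CKO minus that in WT livers was 1.54 ± 0.37 (log2, SE), made up of 0.84 in CKO and -0.70 in WT livers. That difference did not pass the test over all genes (limma adjusted p = 0.171). Ppara was the 1 member of the 33 with this pattern. A wider count took genes whose drug effect, or whose deletion effect, ran opposite ways without overlap, whichever way round. It held 124 of the genes tested (1.49%), and the share for the drug effect alone was not counted. Its other 2 probe sets gave differences of -0.56 and 0.85, so they disagreed in direction.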

How the results depend on the processing

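Of 99 recomputed counts of called members, 82 were within 1.5 times the reported count or, where that was 0, were also 0. The reported count was 0 for CDDO-Im in WT livers, CDDO-Im in CKO livers and the interaction. The 82 therefore include agreements of 0 with 0 and do not measure how stable the calls were. Of 224 recomputed route medians, 222 moved by less than 1 SD between mice of a group (0.14 to 1.22 by route), which is wide: 7 of the 12 route medians changed sign when 1 array was left out. The direction of every called gene named above held in each setting. The 5 members called with deletion under vehicle became 1 (Cd36) with no filter, where more genes are tested, 3 (Bdh1, Cd36 and Fabp1) with the mean of a gene's probe sets and 0 with only the arrays of the compared groups, and ranged from 1 to 6 when 1 array was left out. With only those groups other pathway genes called were 5, not 9, and 2, not 6, for CDDO-Im in WT livers. No filter also gave 5 and 2. The 0 called with CDDO-Im in WT livers ranged from 0 to 1, the 1 being Cd36. The 1 called with deletion under CDDO-Im became 0 with no filter and ranged from 0 to 1. The peroxisomal median for deletion under vehicle ranged from -0.38 to 0.0087. The cause was not tested unless named. Quantile normalization and median centring moved the median of all genes by under 0.1 but raised the share of rises among calls for CDDO-Im in WT livers from 51.6% to 58.3% and 61.4%.

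Replicate numbers were not taken to pair the mice, since the labels give no shared animal, litter or day and 1 of the 3 correlations of same-numbered mice in the drug groups (0.13, 0.08 and 0.15, deviations from group means) was not over 0.1. Different-numbered mice there correlated at -0.18 to 0.08, and each of the 6 correlated best with its own number, a hint from the data and not the design. Other comparisons did not repeat it. Between the vehicle groups the replicates numbered 3 correlated at 0.14, and different-numbered mice at -0.24 to 0.25. Between vehicle and drug groups of 1 genotype, same-numbered mice correlated at -0.07 to 0.09 and different-numbered mice at -0.25 to 0.15. Deviations sum to 0 within a group, so these correlations depend on each other. With the replicate block 0 members were called for deletion under vehicle and 0 for deletion under CDDO-Im, 2 other pathway genes (Nudt7 and Slc25a17) were called for deletion under vehicle, and the Cyp4a14 change for deletion under vehicle was -1.10. WT vehicle replicate 1 and CKO vehicle replicate 5 have numbers that occur once, so this fit takes nothing from them. With 3 mice a group, small shifts of members are below what these data can show, and members below 5 have no usable level.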
